A study of Mus musculus with 18 samples.

Results

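The Cyp2 family was taken as every line of the liver expression table whose gene symbol was Cyp2 followed by a subfamily letter and a number. That rule gave 47 of the 19057 lines, in 13 subfamilies from Cyp2a to Cyp2w. The rule used names only and no measured value. A level of at least 1 RPKM (reads scaled to gene length and to library size) in at least 3 of 18 livers was needed for a test, and 33 of the 47 members passed, among 10507 genes in all. The 33 were 12 of 15 Cyp2c genes, 7 of 8 Cyp2d genes, 4 of 4 Cyp2a genes, 3 of 5 Cyp2b genes, 3 of 7 Cyp2j genes, and Cyp2e1, Cyp2f2, Cyp2r1 and Cyp2u1. Of the 14 others, Cyp2b19, Cyp2b23, Cyp2j11 and Cyp2j12 were listed at 0 in every liver, and Cyp2g1, a P450 of the olfactory lining, came nearest to the filter with 2 livers at 1 RPKM or more and a highest value of 1.61. The remaining 9 were Cyp2s1, Cyp2d11, Cyp2j8, Cyp2c69, Cyp2t4, Cyp2c65, Cyp2j13, Cyp2w1 and Cyp2c66. Cyp2c44 had no line of its own, and RefSeq gives that symbol as an older name of Cyp2c23, which was measured.

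Cytochromes P450 are haem enzymes of the endoplasmic reticulum that insert an atom of oxygen into their substrates, with electrons handed on by P450 oxidoreductase (Por) and cytochrome b5. The Cyp2 family is the largest P450 family of the mouse, and in the liver it oxidises drugs, solvents, steroids, bile acids and polyunsaturated fatty acids. Several members are transcribed under the nuclear receptors CAR (Nr1i3) and PXR (Nr1i2), several differ between male and female mice, and many are expressed in only a zone of the liver lobule.

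The livers came from 10-week-old ICR mice, an outbred stock, with 3 livers in each of 6 groups. All were male according to the study's methods. Con mice were controls on a regular diet, and AOS mice received alginate oligosaccharide at 10 mg/kg and are counted with the regular diet because no high-fat diet is named for them. HFD mice were fed a high-fat diet, and HFD+AOS mice a high-fat diet with alginate oligosaccharide at the same dose. Con-FMT and A10-FMT mice were fed the high-fat diet and were given gut microbiota from control donors or from donors dosed with alginate oligosaccharide at 10 mg/kg, respectively. The donors' small intestinal contents were pooled within each kind of donor, so every recipient of a group shared 1 source. The route and length of dosing in the AOS and HFD+AOS groups are not given in the sources used here. The question was whether diet, oligosaccharide or transplanted microbiota altered the liver.

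Summed RPKM ranged from 692303 to 806937 across the livers, with 14512 to 14982 genes above 0, and Cyp2 members held 0.919% to 1.71% of the sum. RPKM carries no read numbers, so the absolute depth is unknown. The step that 1 read was worth differed by a mean ratio of 1.00 to 1.04 between libraries over 12 sparsely read genes. A gene was kept for this only if its values in all libraries were near whole multiples of 1 common step. A ratio near 1 was therefore fixed by the choice of genes and does not show that depths were equal. A pair of libraries stood apart. The third Con library lay between the other two Con libraries for 98.0% of 148 genes that differed 2-fold between those, and for 28 of 33 Cyp2 members. The third AOS library lay between the other two AOS libraries for 96.5% of 142 such genes, and for 25 of 33 members. Each of the other libraries lay between its group mates for 8.33% to 76.8% of such genes. Counts of called members that rest on Con or AOS livers, and the main differences among them, are therefore also given without these 2 libraries. The main fit pooled the spread over all groups. These 2 libraries thus also enter, and may lower, the standard error (SE) of comparisons that hold no Con or AOS livers. For those comparisons, no separate result without just these 2 is given here. Fits with only the compared groups leave them out together with the other groups. The livers expressed 7 of 8 hepatocyte markers with a line in the table, at a summed 45748 to 69787 RPKM, while 8 macrophage markers summed to 74.2 to 179 RPKM. In whole liver, fewer cells of a type and less RNA per cell cannot be told apart.

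Near-identical members matter for what each value can mean, because the stated alignment settings reported all hits of a read. Among 50-base words of the coding sequences (GENCODE release M21, GRCm38), 38.2% of those of Cyp2a4 also occurred in Cyp2a5, and 23 of 1482 coding bases differed between them. Coding bases 580 to 669 are shown because they hold 5 of those differences, in capitals. Such positions are the only ones by which a read can be assigned to either gene.
Cyp2a4: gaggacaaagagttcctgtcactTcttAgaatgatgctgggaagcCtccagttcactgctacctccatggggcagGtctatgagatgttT
Cyp2a5: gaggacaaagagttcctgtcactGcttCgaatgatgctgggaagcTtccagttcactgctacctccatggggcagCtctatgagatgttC
Other pairs with long shared stretches were Cyp2c67 and Cyp2c40 (40.7% of words), Cyp2a12 and Cyp2a22 (30.1%), Cyp2c50 and Cyp2c37 (22.7%) and Cyp2c39 and Cyp2c38 (12.6%). Values of these genes are uncertain to the extent that reads were split or counted for both. Cyp2e1, Cyp2f2, Cyp2c70, Cyp2c23, Cyp2c55, Cyp2j5, Cyp2j6, Cyp2j9, Cyp2r1 and Cyp2u1 shared 0% of their words with another tested member, and Cyp2c29 shared 0.633%.

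Most genes lie in tandem clusters, with 15 members on chromosome 19 (Cyp2c, where Cyp2c23 lies apart from the rest), 8 on chromosome 15 (Cyp2d), 7 on chromosome 4 (Cyp2j) and 15 on chromosome 7, where the Cyp2a, Cyp2b, Cyp2f, Cyp2g, Cyp2s and Cyp2t genes are interleaved and Cyp2r1 and Cyp2e1 stand alone. The 250 bases before the RefSeq start of transcription (build GRCm38.p6, plus strand) are shown for the 3 members whose high-fat and regular-diet livers did not overlap. These are Cyp2e1 at chr7:140763569-140763818, Cyp2c29 at chr19:39286835-39287084 and Cyp2c55 at chr19:39006769-39007018. Capitals mark the TATA box TATAAA and the nuclear receptor motif AGGTCA, both searched on either strand.
Cyp2e1: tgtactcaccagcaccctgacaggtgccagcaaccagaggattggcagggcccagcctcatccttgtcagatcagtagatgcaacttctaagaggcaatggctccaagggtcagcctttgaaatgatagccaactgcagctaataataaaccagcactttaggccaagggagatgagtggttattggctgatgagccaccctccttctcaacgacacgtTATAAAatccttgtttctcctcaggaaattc
Cyp2c29: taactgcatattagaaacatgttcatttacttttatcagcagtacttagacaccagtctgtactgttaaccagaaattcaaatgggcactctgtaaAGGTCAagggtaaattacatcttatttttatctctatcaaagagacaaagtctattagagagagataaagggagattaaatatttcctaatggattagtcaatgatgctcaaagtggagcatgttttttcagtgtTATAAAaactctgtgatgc
Cyp2c55: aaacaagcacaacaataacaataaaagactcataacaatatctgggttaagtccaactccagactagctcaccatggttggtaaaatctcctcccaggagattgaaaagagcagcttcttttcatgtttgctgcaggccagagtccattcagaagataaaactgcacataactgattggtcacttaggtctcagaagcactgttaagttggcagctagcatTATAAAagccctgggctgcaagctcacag
TATAAA began 31 bases before the start in Cyp2e1, 19 in Cyp2c29 and 29 in Cyp2c55, and AGGTCA began 154 bases before the start in Cyp2c29. Over windows from 250 bases before to 50 after the start, 27 of the 33 tested members had a RefSeq window. TATAAA was present in 17 of these 27, against 13.6% of all 32851 windows, and AGGTCA in 10 of 27, against 16.3%. No matches overlapped, and a match is a description of letters, not a bound site.

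Levels within the family ran from below 1 RPKM to 5937 RPKM, and RPKM allows a ranking because it is per gene length. Cyp2e1, which oxidises ethanol, acetone and paracetamol in hepatocytes around the central vein, was the most abundant member by its mean over the 18 livers. Next came Cyp2f2, the naphthalene-activating P450 of periportal hepatocytes, and then Cyp2d9, Cyp2c29, Cyp2d10, Cyp2d26, Cyp2c70, Cyp2c67, Cyp2j5 and Cyp2c50. At the other end, Cyp2b10, Cyp2b13 and Cyp2c55 were near 1 RPKM or below it in most livers. The family summed to 8650 ± 1201 RPKM in Con, 9721 ± 277 in AOS, 9188 ± 475 in HFD, 11118 ± 706 in HFD+AOS, 9654 ± 613 in Con-FMT and 11918 ± 1426 in A10-FMT (mean ± SD, n = 3).

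**Figure D1:**
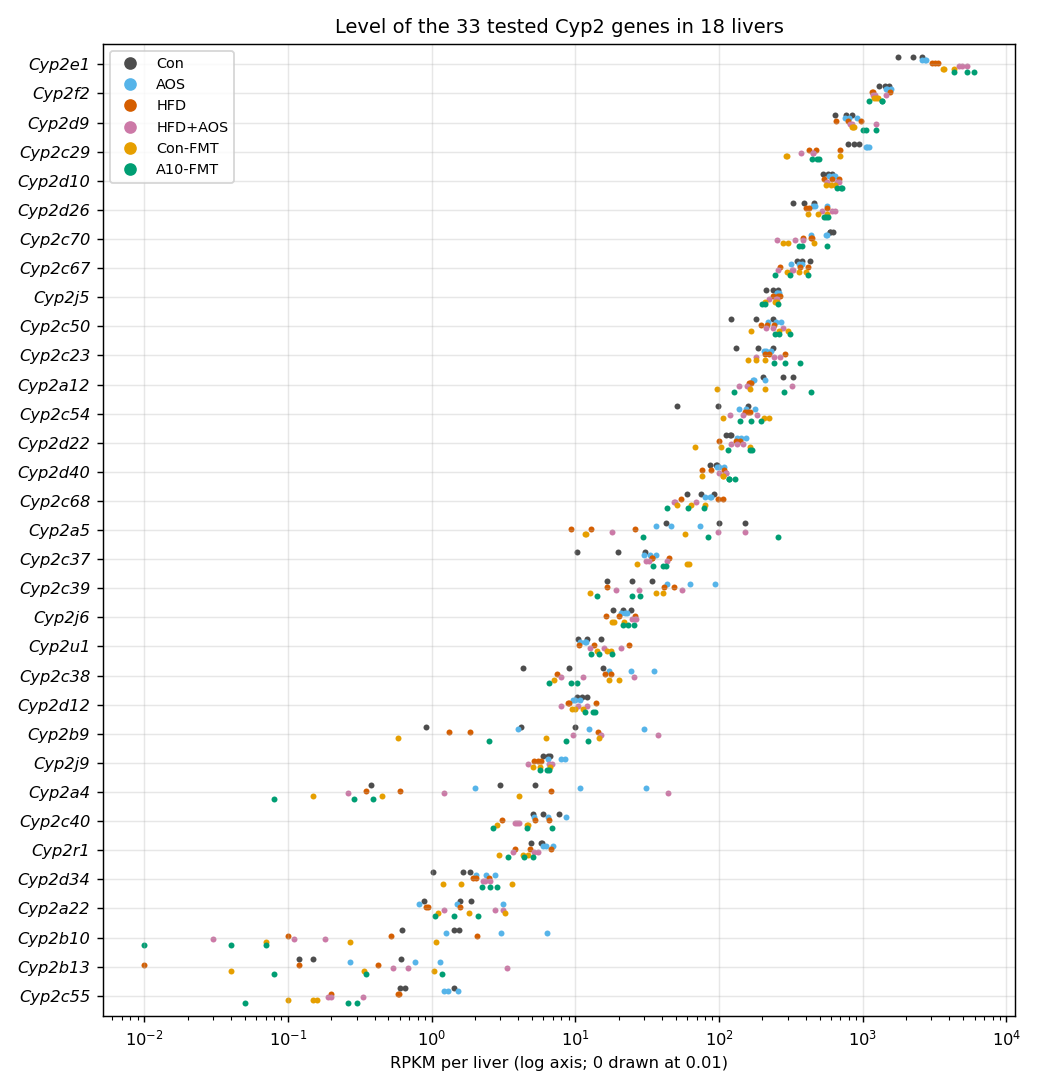
RPKM of the 33 tested Cyp2 genes (rows, from the highest to the lowest mean) in each of 18 livers, on a log axis with 0 drawn at 0.01; each point is 1 liver, coloured by group. Cyp2e1 reaches 5937 RPKM, and the points of Cyp2a4, Cyp2a5, Cyp2b9 and Cyp2b10 are spread far wider within groups than those of Cyp2f2 or Cyp2j5.

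Cyp2e1 stood out as the only member that increased in more than 1 of the comparisons below. Its level was 1755, 2572 and 2221 RPKM in the Con livers and 2750.1, 2569.7 and 2697 RPKM in the AOS livers. It was 3364, 3169 and 3044 RPKM in HFD and 4663, 4886 and 5282 RPKM in HFD+AOS. In the recipients it was 4325, 3672 and 3634 RPKM with control microbiota and 5354, 5937 and 4343 RPKM with microbiota of dosed donors. Every one of the 12 high-fat livers thus lay above every one of the 6 regular-diet livers, and every HFD+AOS, Con-FMT and A10-FMT liver lay above every HFD liver. By group mean, the order was Con (2183 ± 410.0 RPKM), AOS (2672 ± 92.7), HFD (3192 ± 162), Con-FMT (3877 ± 389), HFD+AOS (4943 ± 313) and A10-FMT (5212 ± 807; mean ± SD, n = 3). The A10-FMT and HFD+AOS livers overlapped, as did AOS and Con. The difference in log2(RPKM + 1) was 0.70 ± 0.14 (SE) between A10-FMT and HFD (adjusted p = 0.00786) and 0.63 ± 0.14 between HFD+AOS and HFD (adjusted p = 0.0128). Both were increases. The first call was lost when only the groups compared entered the fit (adjusted p = 0.0771), and the second without the third HFD library (adjusted p = 0.0568). Between HFD and Con the difference was 0.56 ± 0.14 (adjusted p = 0.0896), and without the second Con library it was 0.69 (adjusted p = 0.0249). The latter was the only 1 of 13 alternative settings under which it passed, and the adjusted p reached 0.366 in the others. Con-FMT differed from HFD by 0.28 ± 0.14 (adjusted p = 0.742) and A10-FMT from Con-FMT by 0.42 ± 0.14 (adjusted p = 0.143), and neither difference passed.

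The share that Cyp2e1 took of all Cyp2 RPKM followed the same groups. That share was 23.7% to 26.2% in Con, 27.1% to 27.9% in AOS and 34.6% to 35.0% in HFD. It was 38.9% to 41.8% in Con-FMT, 42.6% to 45.6% in HFD+AOS and 41.5% to 44.6% in A10-FMT. The Cyp2c genes together took 28.0% to 29.1% in Con and 27.5% to 29.5% in AOS, against 15.3% to 26.4% over the high-fat livers. Cyp2e1 is part of the total, so its higher level alone lowers the shares of the other members. In RPKM, the Cyp2c genes summed to 2160 to 2777 in Con, 2736 to 2851 in AOS and 1532 to 2325 over the high-fat livers, with overlap between the diets. The Cyp2d genes held 19.6% to 25.7% across all livers, with ranges that overlapped between every pair of groups.

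Cyp2c29, a CAR-responsive enzyme that makes epoxides from arachidonic acid, was lower on the high-fat diet, where Cyp2e1 was higher. Its level was 794, 938 and 870.4 RPKM in Con and 1070.1, 1046 and 1103 RPKM in AOS. On the high-fat diet it was 425, 474 and 697 RPKM in HFD and 371, 449 and 450.1 RPKM in HFD+AOS. The recipients had 698, 294 and 299 RPKM in Con-FMT and 482, 446 and 498 RPKM in A10-FMT. All 12 high-fat livers were below all 6 regular-diet livers, and 1 Con-FMT liver stood well above the other two. HFD+AOS was lower than AOS by a log2 difference of -1.35 ± 0.25 (SE, adjusted p = 0.00535), a decrease that held without the third Con and AOS libraries (-1.33, adjusted p = 0.0442). The matching difference between HFD and Con was -0.73 ± 0.25 and did not pass (adjusted p = 0.184).

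Cyp2c70, the enzyme by which mice convert chenodeoxycholic acid to muricholic acids, also ran lower on the high-fat diet. It measured 618, 590.5 and 596 RPKM in Con and 438, 564 and 556 RPKM in AOS. It measured 384, 435 and 445 RPKM in HFD and 254, 336 and 383 RPKM in HFD+AOS. Levels were 303.5, 457 and 280.1 RPKM in Con-FMT and 376, 561 and 358 RPKM in A10-FMT. The HFD livers were all below the Con livers and the HFD+AOS livers all below the AOS livers. The third HFD (445 RPKM), second Con-FMT (457 RPKM) and second A10-FMT (561 RPKM) livers nevertheless lay within the regular-diet range of 438 to 618 RPKM. The log2 difference was -0.52 ± 0.20 between HFD and Con (adjusted p = 0.226) and -0.69 ± 0.20 between HFD+AOS and AOS (adjusted p = 0.0526), and neither passed. With the replicate number as a block, the latter passed (adjusted p = 0.0275), and without the third Con and AOS libraries it did not (adjusted p = 0.220).

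Cyp2c55, an inducible epoxygenase, was close to the lower limit of the table. It was 0.65, 1.44 and 0.60 RPKM in Con and 1.30, 1.53 and 1.21 RPKM in AOS, against 0.05 to 0.59 RPKM over the 12 high-fat livers. It passed the filter on low values only through regular-diet livers, so its separation by diet is partly built into its selection. HFD+AOS was lower than AOS by -0.92 ± 0.15 on the log2(RPKM + 1) scale (adjusted p = 0.00249), a scale that understates changes of such low genes.

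The other Cyp2c genes gave no called difference between groups taken singly. Cyp2c37 and Cyp2c54, arachidonic acid epoxygenases that sit beside each other, were low in 1 Con liver. Cyp2c37 was 10.3, 30.6 and 19.9 RPKM in Con, 36.6, 30.02 and 32.9 RPKM in AOS, and 33.9, 34.4 and 44.6 RPKM in HFD. Its HFD livers were all above its Con livers, with a log2 difference of 0.97 ± 0.32 (adjusted p = 0.168). Cyp2c38 was 4.35, 15.7 and 9.09 RPKM in Con and 35.1, 17.2 and 24.2 RPKM in AOS, and Cyp2c39, an enzyme that also hydroxylates retinoic acid, was 16.6, 33.9 and 24.7 RPKM against 93.0, 43.2 and 63.0 RPKM. All AOS livers were above all Con livers for both genes, with log2 differences of 1.40 ± 0.47 (adjusted p = 0.183) and 1.36 ± 0.49 (adjusted p = 0.207). Cyp2c23, an epoxygenase also of the kidney, was 364, 289 and 239.6 RPKM in A10-FMT and 182, 160.2 and 207 RPKM in Con-FMT, a log2 difference of 0.68 ± 0.20 (adjusted p = 0.1105). Without the third A10-FMT library this difference was 0.83 and passed (adjusted p = 0.0415). It passed under only 1 of 13 alternative settings, with an adjusted p of up to 0.387 in the others. Cyp2c67, Cyp2c68 and Cyp2c40 share 23.95% to 40.7% of their words by pairs, so their values are uncertain, and Cyp2c50 (121 to 311 RPKM) passed in no comparison.

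**Figure D2:**
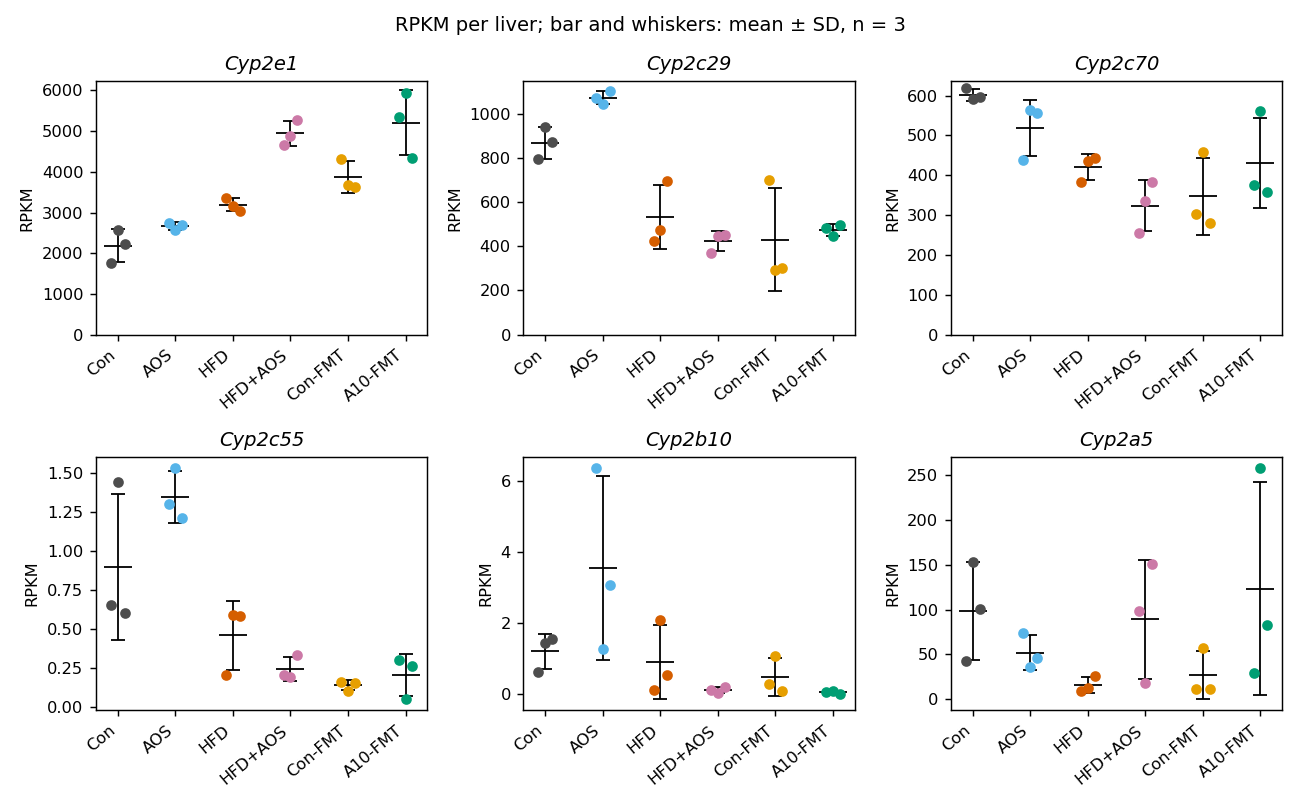
RPKM of Cyp2e1, Cyp2c29, Cyp2c70, Cyp2c55, Cyp2b10 and Cyp2a5 by group; each point is 1 liver, and the bar and whiskers give the mean ± SD of 3 livers. The high-fat livers of Cyp2e1 all lie at 3044 RPKM or above and those of Cyp2c29 all at 698 RPKM or below, while the Cyp2a5 points overlap widely between groups.

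Of the Cyp2b genes, Cyp2b10, the P450 by which CAR activation is usually read, was low throughout, with at least 1 RPKM in 7 livers. It was 0.62, 1.42 and 1.55 RPKM in Con and 6.36, 1.25 and 3.06 RPKM in AOS. It was 0.10, 2.07 and 0.52 RPKM in HFD, 0.11, 0.03 and 0.18 RPKM in HFD+AOS, 0.27, 1.08 and 0.07 RPKM in Con-FMT, and 0.04, 0.07 and 0.00 RPKM in A10-FMT. The 6 HFD+AOS and A10-FMT livers lay below all others but for 1 Con-FMT and 1 HFD liver that fell in their range. Regular-diet livers alone would have carried it past the filter on low values and high-fat livers alone would not, so its lower level on the high-fat diet is partly built into its selection. HFD+AOS was lower than AOS by -1.88 ± 0.38 (SE) on the log2(RPKM + 1) scale (adjusted p = 0.00941), and this call was lost without the third Con and AOS libraries (adjusted p = 0.0592). Cyp2b9 and Cyp2b13, which are female-biased in mouse liver, reached 37.8 and 3.32 RPKM in the first HFD+AOS liver. Cyp2b9 varied from 0.58 to 37.8 RPKM over all livers, and within Con-FMT alone it was 14.5, 6.23 and 0.58 RPKM.

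Cyp2a4 and Cyp2a5 were among the members that varied most between livers of 1 group. Cyp2a5, the coumarin and nicotine hydroxylase, was 42.4, 152 and 100.3 RPKM in Con and 9.27, 12.8 and 25.9 RPKM in HFD. It was 29.5, 258 and 83.4 RPKM in A10-FMT and 98.5, 18.1 and 150.3 RPKM in HFD+AOS. It was 73.5, 36.4 and 45.9 RPKM in AOS and 11.6, 57.5 and 11.8 RPKM in Con-FMT. The HFD livers were below all Con and all A10-FMT livers, but the group SDs were close to the means in A10-FMT (123 ± 119 RPKM) and Con-FMT (27.0 ± 26.4 RPKM). The log2 difference was -2.49 ± 0.83 between HFD and Con (adjusted p = 0.177) and 2.48 ± 0.83 between A10-FMT and HFD (adjusted p = 0.0788). These were the largest differences of any member in those comparisons, and they did not pass the test. Both share the HFD libraries.

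Cyp2a4, a steroid hydroxylase with female bias, followed other livers than its near-identical neighbour. It was 31.1 and 44.2 RPKM in the first AOS and the first HFD+AOS liver, and below 1 RPKM in 9 of 18 livers, among them the A10-FMT livers (0.39, 0.29 and 0.08 RPKM). The ratio of Cyp2a5 to Cyp2a4 ran from 1.91 in the second HFD liver to 1042 in the third A10-FMT liver, and Pearson's r between them over the 18 livers was 0.24. Cyp2a12, which shares 30.1% of its words with Cyp2a22, ran from 96.1 to 434 RPKM. It was 203, 326 and 279 RPKM in Con and 165, 168 and 161 RPKM in HFD, without a called difference in any comparison.

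**Figure D3:**
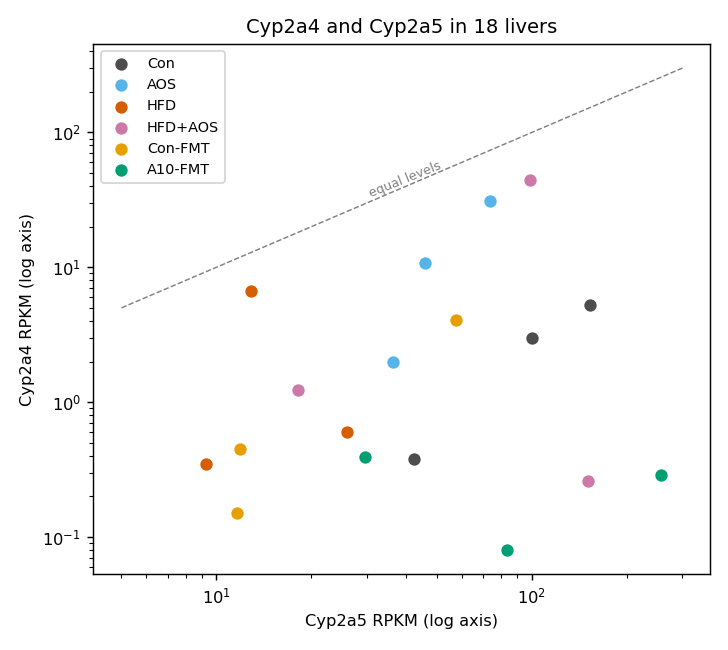
Cyp2a4 (vertical) against Cyp2a5 (horizontal), both in RPKM on log axes; each point is 1 of 18 livers, coloured by group, and the dashed line marks equal levels. Every liver lies below the line, and livers with more than 80 RPKM of Cyp2a5 have Cyp2a4 values from 0.08 to 44.2 RPKM.

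Among the Cyp2d genes, Cyp2d9, a male-biased steroid hydroxylase, was 1062, 1227 and 1005 RPKM in A10-FMT and 979, 793 and 655 RPKM in HFD, without overlap. The log2 difference was 0.45 ± 0.16 (adjusted p = 0.104). Cyp2d40 was 129.6, 117 and 117 RPKM in A10-FMT against 109, 87.8 and 75.5 RPKM in HFD, a log2 difference of 0.43 ± 0.13 (adjusted p = 0.0617). Without the first HFD library, the Cyp2d40 difference was 0.57 (adjusted p = 0.0175) and passed. That was the only 1 of 13 alternative settings under which it passed, and its adjusted p reached 0.239 in the others. Cyp2d10 (532 to 720 RPKM) and Cyp2d26 (327 to 646 RPKM) were among the steadier members, and Cyp2d22, the closest mouse relative of human CYP2D6, ran from 68.2 to 170 RPKM.

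Cyp2f2, Cyp2r1, Cyp2u1 and the Cyp2j genes gave no called difference between groups taken singly. Cyp2f2 had a lowest level of 1105, a median of 1228 and a highest of 1538 RPKM on the high-fat diet, against 1291, 1469 and 1583 RPKM on the regular diet. Cyp2j5, an epoxygenase of kidney and liver, was 199.97 to 267 RPKM on the high-fat diet and 211 to 260 RPKM on the regular diet. Cyp2r1, a vitamin D hydroxylase, was 2.94 to 6.78 RPKM against 4.88 to 7.04 RPKM. Cyp2u1, a fatty acid hydroxylase, was 12.5 ± 2.32 RPKM in Con and 16.0 ± 6.94 RPKM in HFD (SD, n = 3), where the first liver (23.8 RPKM) was the highest of all.

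Counted over the family, HFD against Con called 0 of 33 members with limma, where 0.381% of all tested genes were called. At an unadjusted p under 0.05 there were 7 members, with Cyp2e1, Cyp2c37 and Cyp2c54 higher and Cyp2a5, Cyp2c29, Cyp2c55 and Cyp2c70 lower, against 15.4% of all tested genes. Groups did not overlap for 3 members that were higher in HFD (13.8% of all tested genes) and for 6 that were lower (4.67%). The latter were Cyp2a5, Cyp2a12, Cyp2c29, Cyp2c55, Cyp2c70 and Cyp2j9. Cyp2c55 is in both lists of lower members. Only regular-diet livers carried Cyp2c55 past the filter on low values, so its place in these lists is partly built into its selection. The median log2 difference of the members was -0.05, beside 0.05 over all tested genes. Without the second Con library, Cyp2c37 and Cyp2e1 were called. Without the third Con and AOS libraries 0 members were called, with an adjusted p of 0.366 for Cyp2e1 (0.59) and 0.456 for Cyp2c29 (-0.73).

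A10-FMT against HFD called 1 of 33 members, Cyp2e1, where 6.60% of all tested genes were called. At an unadjusted p under 0.05 there were 4 members, against 24.5% of all tested genes, with Cyp2a5, Cyp2d9 and Cyp2d40 also higher. All 7 tested Cyp2d genes had a higher mean, with a median log2 difference of 0.28, beside -0.03 over all tested genes. Groups did not overlap for 5 members that were higher (10.0% of all tested genes) and 1 that was lower (13.4%), Cyp2b10. Without the first HFD library, 5 members passed, Cyp2d9, Cyp2d12, Cyp2d40 and Cyp2e1 higher and Cyp2c68 lower. The 6.60% belongs to the main fit, and the share of all tested genes called without this library is not given here. Cyp2d9 and Cyp2d12 share 12.2% of their words.

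Con-FMT against HFD called 0 of 33 members, where 0.00952% of all tested genes, a single gene, were called. Cyp2c55, lower in Con-FMT, was the 1 member with an unadjusted p under 0.05, against 6.63% of all tested genes. A10-FMT against Con-FMT called 0 of 33, where 1.68% of all tested genes were called, and 5 members had an unadjusted p under 0.05, against 16.4% of all tested genes. These were Cyp2c23, Cyp2e1, Cyp2d40, Cyp2a5 and Cyp2d9, all higher in A10-FMT. Leaving out the third A10-FMT library gave 2 calls, Cyp2c23 and Cyp2e1, and leaving out the third Con-FMT library gave 1, Cyp2d22.

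AOS against Con called 0 of 33 members, where 0.133% of all tested genes were called. There were 27 members with a higher mean in AOS and 6 with a lower one, and their median log2 difference was 0.23, beside 0.07 over all tested genes. At an unadjusted p under 0.05 there were 10, all higher (Cyp2b10, Cyp2c37, Cyp2c38, Cyp2c39, Cyp2c50, Cyp2c54, Cyp2c55, Cyp2d26, Cyp2d34 and Cyp2e1), against 12.9% of all tested genes that were higher at that threshold. Of these, Cyp2c55 passed the filter on low values mainly through AOS livers, so its place among the 10 is partly built into its selection. Several of the 10 share coding words with each other, and the first Con liver was the lowest of its group in all of them but Cyp2c55. Without the third Con and AOS libraries, 0 members were called.

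HFD+AOS against HFD called 1 of 33 members, Cyp2e1, where 8.75% of all tested genes were called. At an unadjusted p under 0.05 there were 7 members, against 26.2% of all tested genes, with Cyp2a5, Cyp2b9, Cyp2b13, Cyp2d26 and Cyp2j6 also higher and Cyp2c68 lower. Of the 12 tested Cyp2c genes, 10 had a lower mean in HFD+AOS, with a median log2 difference of -0.15, beside -0.01 over all tested genes. Counts of called members ranged from 0 without the third HFD library to 4 without the first HFD library (Cyp2c68, Cyp2d26, Cyp2e1 and Cyp2j6), and Cyp2a5 and Cyp2e1 were called without the second HFD+AOS library.

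The effect of AOS was also compared between the diets, as the difference of both differences. It called 0 of 33 members, where 0.504% of all tested genes were called. At an unadjusted p under 0.05 there were 4, against 14.7% of all tested genes. Cyp2a5 had a higher effect on the high-fat diet (2.87 ± 1.17 on the log2 scale, adjusted p = 0.278), and Cyp2b10, Cyp2c55 and Cyp2c68 a lower one. For Cyp2c55, which passed the filter on low values mainly through AOS livers, this is partly built into its selection. The value of Cyp2b10 was -1.56 ± 0.54 (adjusted p = 0.204). Without the third Con and AOS libraries, 0 members were called.

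The contrasts that follow were chosen after the values were seen. HFD+AOS against AOS shares no library with HFD against Con. It called 4 of 33 members, where 5.44% of all tested genes were called, with Cyp2e1 higher (0.89 ± 0.14) and Cyp2b10, Cyp2c29 and Cyp2c55 lower. Cyp2b10 and Cyp2c55 passed the filter through regular-diet livers, so their calls are descriptions here. Groups did not overlap for 3 members that were higher (11.6% of all tested genes) and 9 that were lower (17.1%). Without the third Con and AOS libraries, 3 members were called, with Cyp2b10 lost. When only the compared groups entered the fit, 7 were called, the same 4 with Cyp2c40, Cyp2c68 and Cyp2c70, all lower.

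Set against the regular diet, the 4 high-fat groups together gave 7 called members, where 12.9% of all tested genes were called. Cyp2e1 (0.81 ± 0.08, adjusted p = 3.24e-05) and Cyp2c37 (0.65 ± 0.19, adjusted p = 0.0385) increased. Cyp2c29 (-1.10 ± 0.15, adjusted p = 0.000335), Cyp2c55 (-0.74 ± 0.09, adjusted p = 0.000135), Cyp2b10 (-1.20 ± 0.24, adjusted p = 0.00396), Cyp2c70 (-0.58 ± 0.12, adjusted p = 0.00541) and Cyp2r1 (-0.35 ± 0.11, adjusted p = 0.0481) decreased. Cyp2c55 and Cyp2b10 were tested only because of their levels in regular-diet livers, so their decreases are descriptions and no support for an effect of diet. All livers of the diets were apart for Cyp2e1 (higher, as for 0.390% of all tested genes) and for Cyp2c29 (lower, as for 0.238%), and Cyp2c55 was apart with the same limit. Without the third Con and AOS libraries, 4 members passed, Cyp2b10, Cyp2c29, Cyp2c55 and Cyp2e1, and Cyp2c70 missed the threshold (adjusted p = 0.0503). The calls of Cyp2c37 and Cyp2r1 were lost under 13 and 18 of 24 alternative settings. This contrast pools mice with and without oligosaccharide or transplants, and its libraries are those of the comparisons above.

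**Figure D4:**
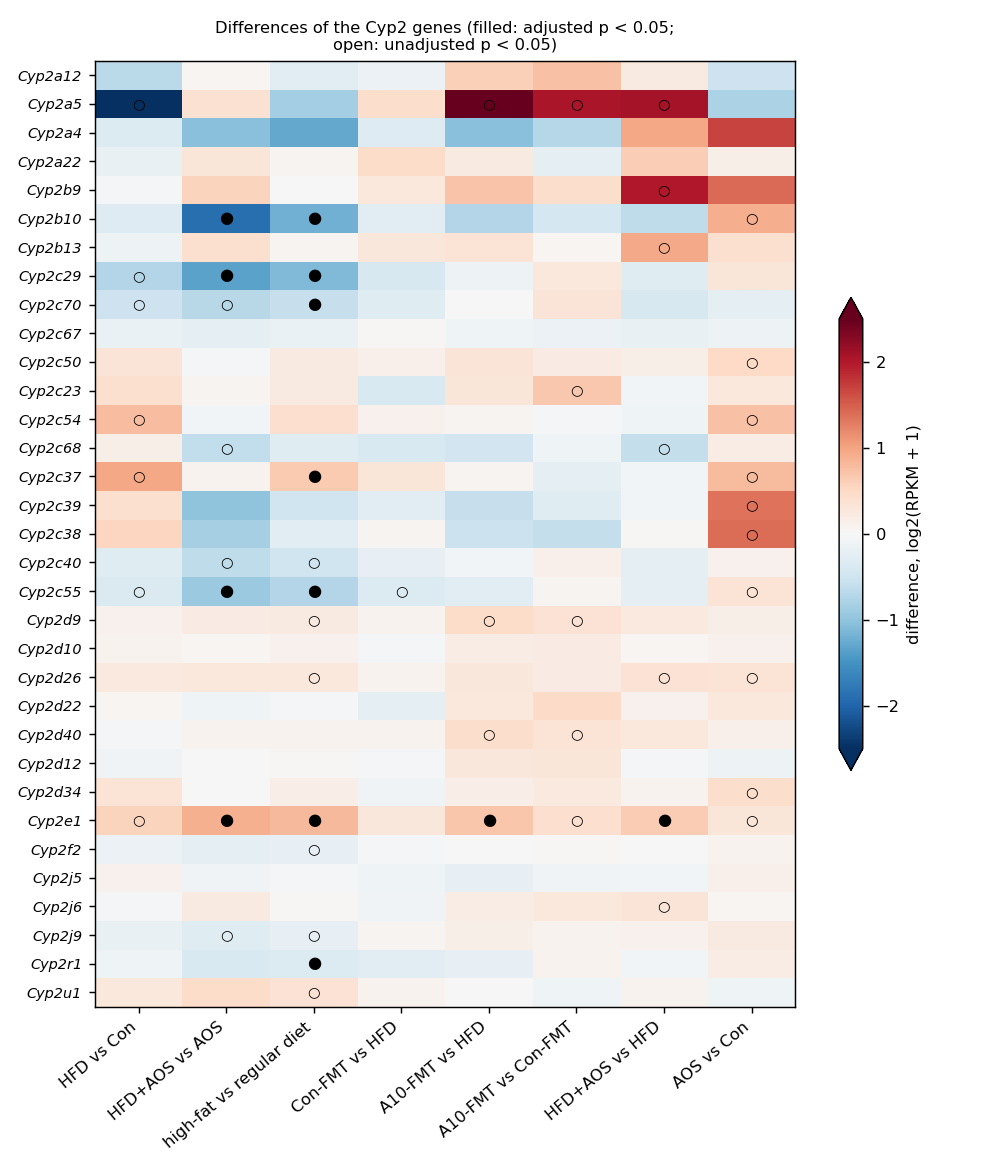
Differences of the 33 tested Cyp2 genes (rows) on the log2(RPKM + 1) scale in 8 comparisons (columns), red where the group named first was higher; filled circles mark an adjusted p under 0.05 and open circles an unadjusted p under 0.05. Filled circles are found for Cyp2e1 in 4 columns, for Cyp2b10, Cyp2c29 and Cyp2c55 in 2, and for Cyp2c37, Cyp2c70 and Cyp2r1 in 1.

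On the log2(RPKM + 1) scale, Cyp2 genes varied more between livers of 1 group than most genes. That scale narrows the spread of low genes, and the genes compared were not matched for level. The within-group SD of log2(RPKM + 1) had a median of 0.304 over the 33 members and of 0.134 over all tested genes, and 12 members lay above the 95th percentile of all tested genes (0.361). The widest were Cyp2a4 (1.59), Cyp2b9 (1.31), Cyp2a5 (1.16), Cyp2c39 (0.680), Cyp2c38 (0.659), Cyp2a12 (0.534) and Cyp2b10 (0.531).

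Members that vary together across the 18 livers were often those that share sequence, and reads in common, group and library enter every such correlation. The 13 pairs with at least 10% of coding words in common had a median Pearson's r of 0.818 (0.0539 to 0.958). The 86 other pairs of the same subfamily had a median of 0.352, and the 429 pairs of different subfamilies one of 0.0788. Among pairs with many shared words, r was 0.96 for Cyp2c54 and Cyp2c37 and for Cyp2c39 and Cyp2c38, but 0.24 for Cyp2a5 and Cyp2a4 and 0.31 for Cyp2a12 and Cyp2a22. Among pairs without shared words, Cyp2c29 and Cyp2c55 had 0.86, the highest of the 86 pairs, and Cyp2e1 and Cyp2d26 had 0.77, among the highest of the 429. Both pairs are named for their high values. Cyp2c29 and Cyp2c55 were both lower in all high-fat livers, so the diets enter their r.

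**Figure D5:**
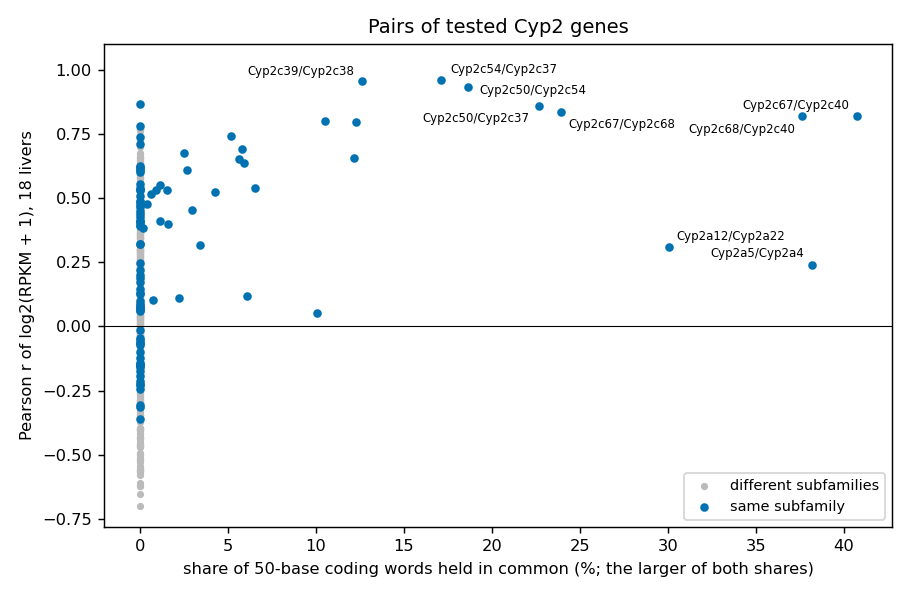
Pearson's r of log2(RPKM + 1) over 18 livers (vertical) against the share of 50-base coding words held in common (horizontal, in percent) for all pairs of the 33 tested Cyp2 genes; blue points are pairs of 1 subfamily and grey points pairs of different subfamilies. Pairs sharing at least 10% mostly lie near the median of 0.818, with Cyp2a12/Cyp2a22, Cyp2a5/Cyp2a4 and Cyp2b10/Cyp2b13 (0.0539) far below.

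Genes that work with Cyp2 enzymes were read from lists of electron donors, haem enzymes, regulators and arachidonate partners. Por, the shared electron donor, was 101, 152 and 63.4 RPKM in A10-FMT, 35.5, 45.3 and 35.4 RPKM in Con-FMT, and 21.5, 51.0 and 51.0 RPKM in HFD. It increased in A10-FMT against HFD (log2 difference 1.35, adjusted p = 0.0134) and against Con-FMT (1.34, adjusted p = 0.0309), the only one of 6 donors to be called there. Of 12 haem genes, 0 were called in either comparison, where 6.60% and 1.68% of all tested genes were called. Pla2g12a was the 1 of 7 arachidonate partners called in A10-FMT and in HFD+AOS against HFD (8.75% of all tested genes in the latter), higher in both. Across diets, 12.9% of all tested genes were called. There Fech, which inserts iron into haem, was the 1 haem gene called, higher on the high-fat diet. Cyb5b was the 1 donor called, lower, and the partners Pla2g12a and Ephx2 were called higher. In lists this short, so few calls are no result about a list as a whole.

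Regulators of Cyp2 genes were read in the same way. Of 19 tested, 7 increased and 0 decreased in A10-FMT against HFD, where 6.60% of all tested genes were called. These were the clock output factors Dbp, Tef and Hlf, the receptors Ppara, Nr1i3 and Nr1h4, and Cebpa. In HFD+AOS against HFD, where 8.75% of all tested genes were called, 6 increased (Dbp, Tef, Hlf, Ppara, Cebpa and Nr1h4) and Hnf4a decreased. Nr1i3, which encodes CAR, was 101, 164 and 66.8 RPKM in A10-FMT and 54.5, 47.3 and 52.4 RPKM in HFD (log2 difference 1.00, adjusted p = 0.0319), while the differences of Cyp2b10 (-0.74) and Cyp2c29 (-0.13) there were not called.

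Dbp, whose level in liver swings strongly over the day, separated the groups in which Cyp2e1 was highest. It was 127, 70.8 and 49.2 RPKM in A10-FMT, 112, 88.9 and 97.8 RPKM in HFD+AOS and 16.5, 3.24 and 22.6 RPKM in Con-FMT. It was 0.27 to 0.68 RPKM in the Con and HFD livers, and 3.41, 0.36 and 1.78 RPKM in AOS. Cyp2e1 and Dbp therefore moved together in the comparisons of A10-FMT and of HFD+AOS with HFD. Both were also called higher in HFD+AOS against AOS and in the high-fat against the regular diet. Over the diets, the mean of Dbp was 49.1 RPKM on high-fat and 1.245 RPKM on regular. Between HFD and Con, where Cyp2e1 was not called, Dbp differed by -0.16 (adjusted p = 0.910). The part of these Dbp differences in the Cyp2e1 and Cyp2a5 results was not tested, and times of collection are not given in the sources used here.

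Markers of zones and of other cells were counted beside the Cyp2 results, against the same 6.60% and 8.75% of all tested genes. Of 11 pericentral markers, Lect2 and Gulo were higher and Axin2 lower in A10-FMT against HFD, and Lect2, Gulo and Glul were higher in HFD+AOS against HFD. Of 11 periportal markers, 0 and 1 (Cdh1, lower) were called in these comparisons. Apob, 1 of 7 hepatocyte markers, and Sox9, 1 of 4 cholangiocyte markers, were lower in both, and 0 of 8 macrophage, 0 of 8 stellate cell and 0 of 8 endothelial markers were called in either. Across diets, where 12.9% of all tested genes were called, 6 of 8 macrophage markers were lower on the high-fat diet (summed 74.2 to 172 RPKM, against 103 to 179 RPKM). There 2 of 8 stellate cell markers (Reln and Col3a1) and 1 of 8 endothelial markers (Stab2) were higher, and 0 of 4 cholangiocyte markers were called. Among pericentral markers, Gulo and Lect2 were higher and Cyp1a2 lower on the high-fat diet, and the periportal marker Pck1 was higher. Hepatocyte markers went both ways, with Ahsg and Apoa1 higher and Fgb lower. The 17 female-biased genes, of which 8 were tested, summed to 6.04 to 99.4 RPKM, and the 12 male-biased genes to 2640 to 9779 RPKM. Of the female-biased genes, Cyp4a14, Cyp3a44 and Cyp4a10 were lower in A10-FMT against HFD and Acot3 was higher in HFD+AOS against HFD. Of the male-biased genes, Elovl3 was lower in both, and Selenbp2 was lower in HFD+AOS against HFD. Across diets, Cyp7b1 was higher and Elovl3, Cyp4a12a and Cyp4a12b were lower on the high-fat diet. The part of these markers in the Cyp2 results was not tested.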

How the data were processed

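Liver RNA-seq of 18 mice, 3 in each of 6 groups taken from the labels, was analysed. According to the study's methods, the authors mapped reads to reference genes with SOAPaligner with all hits reported, and deposited RPKM values for 19057 gene symbols. Per the labels, Bowtie 0.12.2 and mm10 were also used, with no role named. The unit is not in the table's header and was taken from the methods. Strandedness, read numbers and gene lengths are not given in the sources used here, so DEGseq, which needs read numbers, was not run, and the absolute depth and its precision are unknown.

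Genes with at least 1 RPKM in at least 3 livers (10507) were tested on log2(RPKM + 1), so fold changes are on that scale and understate those of low genes. Limma 3.58.1 in R 4.3.3 (lmFit, eBayes with trend) fitted 6 group means over all 18 livers. The p-values were two-sided, adjusted after Benjamini and Hochberg over all tested genes within a comparison, and called under 0.05. They measure the spread between these livers only. The script was tested on simulated data. Errors are SD over 3 livers or SE of the fit.

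Members and lists were chosen with earlier results of these data known. Named genes are called members, in each comparison the 2 members with the smallest p in each direction, the 10 most abundant, and 15 fixed ones. Other members are named with levels or counts, and Cyp2a12, Cyp2c40, Cyp2d12, Cyp2d22, Cyp2d26, Cyp2d34 and Cyp2j6 were added after their values were seen, as were the contrasts of HFD+AOS with AOS and of the pooled diets. Same-numbered livers did not pair, with correlations of deviations from -0.177 to 0.225. Sequences and places are from GENCODE M21 and RefSeq GRCm38.p6 by symbol. Python 3.11.15, numpy 2.4.6, pandas 2.3.3 and matplotlib 3.10.9 made tables and figures. Alternatives were equal library medians, a pseudocount of 0.1, no filter, only the compared groups, a replicate block, each library left out, and the third Con and AOS libraries left out.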

Additional observations from a re-analysis of the deposited data

How the results depend on the processing

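Over single members, 663 of 710 values under alternative settings kept their direction and their side of the threshold, 35 lost a call, 11 gained one and 1 reversed, the Cyp2a5 difference between HFD+AOS and AOS, which ran from -0.22 without the third HFD+AOS library to 1.27 without the second. Of 134 counts of called members, 124 stayed within 1.5 times. Shares of all tested genes are given for the main fit only, so none stands beside the counts under alternative settings. With only the compared groups in the fit, 0 members were called in A10-FMT against HFD and 7 in HFD+AOS against AOS. Without the third Con and AOS libraries, 4 were called between diets. These fits hold fewer samples, and the cause of the changed counts was not tested. Leaving out 1 library at a time gave 0 to 2 called members in HFD against Con, 1 to 5 in A10-FMT against HFD, 0 to 2 in A10-FMT against Con-FMT, 0 to 4 in HFD+AOS against HFD, 4 to 5 in HFD+AOS against AOS, 5 to 8 between diets, and 0 to 0 in the others. Where this left 2 livers in a group, the pooled spread was used.

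The adjusted p of Cyp2e1 ranged from 0.00221 to 0.0771 in A10-FMT against HFD, from 0.00838 to 0.0568 in HFD+AOS against HFD, and from 1.57e-05 to 0.00124 between diets, where that of Cyp2c29 ranged from 5.08e-06 to 0.00741. The numbers of the livers do not pair them. With the replicate block, 5 members were called in HFD+AOS against AOS, Cyp2c70 being added, and 7 between diets, where Cyp2r1 was lost and Cyp2c40 gained, and no count moved by over 1.5 times. Without read numbers, values under 1 RPKM have no known precision, which limits Cyp2b10, Cyp2b13, Cyp2c55 and most values of Cyp2a4.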
